A study of Rattus norvegicus with 372 samples.

Results

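Ranitidine at 4000 µM, the higher of its 2 concentrations, was compared with vehicle in primary rat hepatocytes by TempO-Seq. The comparison takes every well whose label names ranitidine at 4000 µM and every vehicle well of the same batch, which are 6 ranitidine wells (3 per batch) and 9 vehicle wells (3 in batch 1 and 6 in batch 2) of the wells run by the whole transcriptome (WT) assay. The same 15 lysates were also run by the smaller surrogate (ST) assay, and the series holds 372 libraries in all. The study treated hepatocytes with 14 chemicals at 2 concentrations each to build a screen for hepatotoxicants. The hepatocytes came from male Wistar rats, 1 rat per batch, and were kept between layers of collagen at 25000 cells per well. Both groups received 0.5% DMSO for 24 h in medium with 100 nM dexamethasone, a glucocorticoid, and 10 ng/mL EGF, a growth factor, so these agents are part of the vehicle group as well. Ranitidine stood on plate 4 of batch 1 and plate 2 of batch 2, and vehicle on plate 4 of batch 1 and plates 2 and 3 of batch 2. The wells of a batch are technical replicates of 1 rat and the 2 rats are the only biological replicates, so the p-values below mostly measure the spread between wells.

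Ranitidine blocks the histamine H2 receptor of the acid-secreting cells of the stomach and is prescribed to lower gastric acid. It is a weak base, is oxidised in the liver in part by flavin-containing monooxygenases, and has been linked to rare liver injury. Hepatocytes make most plasma proteins, dispose of ammonia as urea, store and release glucose, burn fatty acids and make bile acids, and lose these specialised functions easily in culture. In TempO-Seq, a pair of detector oligos is ligated on the target RNA in the lysate, so reads count ligated probes, and levels can be compared between wells for a gene but not between genes.

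The ranitidine wells had 5631675 to 6678269 WT reads in batch 1 and 8359395 to 8975207 in batch 2, and the vehicle wells had 5492941 to 8264980 and 5788931 to 7199877. In batch 2 every ranitidine well was thus deeper than every vehicle well, and the part of depth in the results was not tested. Levels are given as CPM (the usual scaling of a gene's reads to the reads of its well), with library sizes scaled by the trimmed mean of M-values. Of 20946 genes measured, 10191 had a mean of at least 10 counts over all wells of the assay and were tested with edgeR's quasi-likelihood test, and a gene is said to have risen or fallen where its Benjamini-Hochberg adjusted p was under 0.05. The 17 hepatocyte markers summed to 37100 to 44500 CPM with vehicle and to 15800 to 19300 CPM (batch 1) and 11900 to 13800 CPM (batch 2) with ranitidine. Albumin, the main plasma protein, stood at 5890, 7010 and 5680 CPM in the ranitidine wells of batch 1 and at 12100, 11600 and 10300 CPM with vehicle. In batch 2 Alb stood at 4520, 4340 and 5260 CPM with ranitidine, and at 12300 to 14300 CPM (median 13500) with vehicle. Neither batch had overlapping wells, and Alb fell by 1.24 on the log2 scale (SE 0.102).

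Ranitidine at 4000 µM changed the level of most genes tested. With both batches in the fit, 3295 genes rose (32.3% of those tested) and 3451 fell (33.9%), and the median log2 fold change of all genes was -0.0253. At least a 2-fold rise was found for 749 of them (7.35%) and at least a 2-fold fall for 1387 (13.6%). Fitted alone, batch 1 had 2662 genes higher (26.1%) and 2855 lower (28%), and batch 2 had 3188 higher (31.3%) and 2786 lower (27.3%). Of the 4088 genes called in both batches, 4003 had the same sign, 2095 higher and 1908 lower, and 85 had opposite signs. The wells of the groups did not overlap in either batch for 1945 genes that were higher (19.1%) and 1899 that were lower (18.6%). In the ST assay, 598 of 1760 genes rose (34%) and 659 fell (37.4%). Of the 1603 genes tested by both assays, 1010 were called by both, and 1008 of these had the same sign.

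The gene that rose most was Crct1, which encodes a small cysteine-rich protein known from epidermis. Crct1 had 770, 867 and 945 CPM in the ranitidine wells of batch 1 against 2.88, 2.68 and 3.07 CPM with vehicle. In batch 2 it had 345, 207 and 422 CPM against 1.17 to 2.32 CPM (median 1.54). All 6 ranitidine wells lay far above all vehicle wells, a 254-fold difference (log2 fold change 7.99, SE 0.28). Sfn, the p53-regulated 14-3-3 sigma protein of epithelial cells, stood at 26.4, 31.5 and 31.3 CPM in batch 1 against 0.721, 0.536 and 0.853 CPM. In batch 2 Sfn stood at 108, 77.1 and 114 CPM against 1.3 to 2.77 CPM (median 2.16). The groups again did not overlap (log2 fold change 5.40, SE 0.275), and the ST assay gave 5.01 for Sfn. Sdcbp2, a PDZ domain protein related to syntenin, rose from 13.1 to 20.6 CPM over the vehicle wells to 252 to 290 CPM over the ranitidine wells, with nearly the same log2 fold change in batch 1 (3.89) and batch 2 (4.04).

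Hamp, which encodes hepcidin, the liver hormone that closes the iron exporter ferroportin, had the next highest fold change after Crct1. It stood at 62.7, 73.5 and 79.6 CPM in the ranitidine wells of batch 1 against 2.16, 1.07 and 3.24 CPM with vehicle. In batch 2 it stood at 363, 282 and 385 CPM against 0.855 to 2.91 CPM (median 2.4). The log2 fold change was 6.52 (SE 0.264), and it was larger in batch 2 (7.31) than in batch 1 (5.06), a difference that passed the test of the interaction of batch and treatment (edgeR adjusted p = 0.00175). Hepcidin transcription is known to be driven by bone morphogenetic protein signals through SMAD proteins and by interleukin 6 through STAT3. Genes tied to these signals went both ways. Id1, a SMAD target named after its value was seen, rose by 1.35 and Socs3, a STAT3 target, by 1.95 on the log2 scale. Hjv, Hfe and Tfr2, through which hepatocytes sense iron, fell by 2.51, 1.67 and 1.45. Of 20 acute phase genes, a list that holds Hamp and Socs3, 6 rose and 13 fell. The part of these signals in the rise of Hamp was not tested. The 126 bases of the Hamp promoter below are shown because they hold GGCGCC, the core of a known SMAD-binding element, in capitals. It lies 129 to 124 bases before the gene's start (RefSeq sequence, GRCr8, chr1:95300335-95300460, minus strand, printed along the gene), and 12.3% of all promoter windows of 300 bases hold the same letters on either strand.
Hamp: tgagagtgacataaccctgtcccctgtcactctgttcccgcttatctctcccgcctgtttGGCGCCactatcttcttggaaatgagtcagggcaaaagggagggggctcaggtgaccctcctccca

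Further genes among the 12 highest were Il1r2, the decoy receptor of interleukin 1 (log2 fold change 4.18), Sema3e, a secreted guidance protein (3.69), Rab15, a vesicle trafficking GTPase (3.59), Dnase2b, an acid nuclease (3.58), and Emp2, an epithelial membrane protein (3.54). In the vehicle wells of batch 2, Emp2 had at most 0.724 CPM and Sema3e as little as 0.402 CPM. These levels are near the 0.325 to 0.565 CPM that 3 counts equal. Dnase2b was already well detected with vehicle, at 15.9 to 18.1 CPM in batch 1 and 54 to 81 CPM in batch 2, and reached 328 to 453 CPM with ranitidine. Rsad2, which encodes the antiviral protein viperin, stood at 3.01 to 7.28 CPM in batch 1 and 10.2 to 58.9 CPM in batch 2, against at most 1.25 CPM in any vehicle well. Its ranitidine wells were uneven in batch 2, but none overlapped with vehicle. Ipcef1, an adaptor of ARF-type GTPase signalling, had at most 3 counts in any vehicle well and 3.32 to 11.4 CPM with ranitidine.

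**Figure D1:**
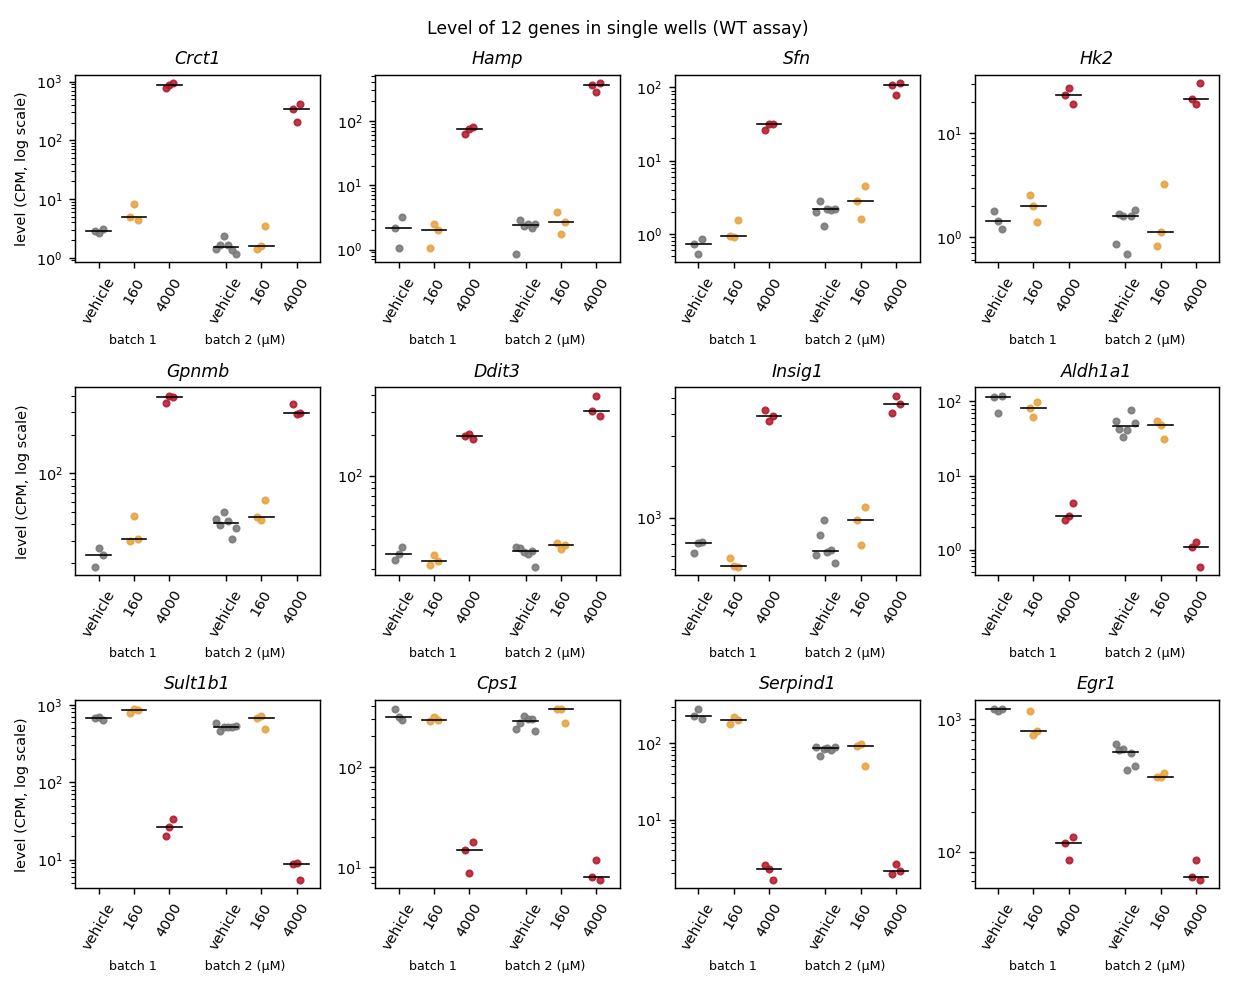
Level (CPM, log scale) of 12 genes in each well, for vehicle, 160 µM and 4000 µM ranitidine in batch 1 (left of each panel) and batch 2 (right). Points are wells and black lines are group medians. For all 12 genes the wells at 4000 µM stand clear of the vehicle wells in both batches, as for Hk2 with 19 to 30.6 CPM against 0.688 to 1.83 CPM, while the wells at 160 µM lie near vehicle.

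Among the genes that fell most were enzymes of sulfate conjugation and aldehyde metabolism. Sult1b1, a sulfotransferase, stood at 19.9, 26.4 and 33.1 CPM in the ranitidine wells of batch 1 against 684, 700 and 633 CPM with vehicle. In batch 2 Sult1b1 stood at 8.66, 9.03 and 5.51 CPM against 456 to 577 CPM (median 518). The groups were far apart in both batches, a 38.4-fold decrease (log2 fold change -5.26, SE 0.225), and the ST assay gave -5.02. Aldh1a1, which oxidises retinaldehyde, stood at 2.53, 2.83 and 4.21 CPM against 116, 68.9 and 119 CPM in batch 1. In batch 2 it stood at 1.08, 1.26 and 0.586 CPM against 33.4 to 76.8 CPM (median 46.2). No ranitidine well came near a vehicle well, and the fall was 35.6-fold (log2 fold change -5.15, SE 0.49). Aldh3a1, an aldehyde dehydrogenase and target of the aryl hydrocarbon receptor, had 0 counts in 5 of the 6 ranitidine wells and 1 count in the other, against 45 to 149 counts per vehicle well, so that its fall is given without a fold.

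Further large decreases were found for the sulfotransferase Sult1a1 (-5.17), Serpind1, which encodes the thrombin inhibitor heparin cofactor II (-5.90), and Cpn2, a subunit of plasma carboxypeptidase N (-5.75). Vil1 and Calml4, both of the actin core or the tips of microvilli, fell by 6.06 and 6.05 on the log2 scale, from 15 to 24.1 CPM to at most 0.753 CPM for Vil1 and from 15 to 38.6 CPM to at most 1.32 CPM for Calml4. St8sia3, a sialyltransferase, and Reg4, a secreted lectin, were near 0 with ranitidine, at up to 0.377 and 0.366 CPM, against 8.68 to 18.8 and 6.25 to 10.4 CPM with vehicle.

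Most enzymes of glucose and fructose handling fell. Of 16 genes of gluconeogenesis and glucose sensing tested, 12 fell and 2 rose, with a median log2 fold change of -1.46. Among them were Pklr, the liver pyruvate kinase (-4.52), Fbp1, fructose 1,6-bisphosphatase (-3.04), and Khk, which phosphorylates fructose (-2.63). Slc2a2, the glucose carrier GLUT2, fell by 2.05 on the log2 scale. G6pc, the enzyme that frees glucose, was near the limit of 3 counts in both groups, at 0 to 0.325 CPM against 0.179 to 0.825 CPM, so that no fold is given, and its call was lost with wells summed per rat. Pck1, the gluconeogenic carboxykinase, did not pass the test (log2 fold change 0.43). The genes that rose were Irs2, an adaptor of the insulin receptor (2.66), while its relative Irs1 fell (-2.46), and Igfbp1, an insulin-repressed binding protein (1.30).

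Fatty acid oxidation genes and other targets of the lipid sensor PPARalpha mostly fell, with 21 of 31 lower, 5 higher and a median of -0.664. Fabp1, the fatty acid carrier of hepatocytes, fell more in batch 1 (log2 fold change -5.93) than in batch 2 (-1.65). Its levels were 0.317 to 1.13 CPM against 38.7 to 61.8 CPM in batch 1, and 4.34 to 9.2 CPM against 17.4 to 24.5 CPM in batch 2, without overlap in either. Ppara itself, a member of the list, fell by 1.56 and Cpt1a, the gate of mitochondrial fatty acid entry, by 0.91 on the log2 scale. Cpt1b, the muscle form of that gate, and Acot2, a mitochondrial thioesterase, rose by 1.76 and 1.78. Pdk4, which blocks pyruvate dehydrogenase, had at most 2 counts in any vehicle well and at most 9 in any ranitidine well, and did not pass the test.

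Most genes of nitrogen metabolism fell as well. Of 11 genes of the urea cycle and glutamine metabolism, 7 fell and 2 rose (median -1.46). Cps1, the first enzyme of the urea cycle, stood at 14.9, 8.66 and 17.9 CPM in batch 1 against 377, 315 and 293 CPM. In batch 2 Cps1 stood at 8.01, 11.7 and 7.5 CPM against 225 to 322 CPM (median 284). No wells overlapped, and the fall was 26.5-fold. Otc, which forms citrulline, fell by 4.85 on the log2 scale. Nags, which makes the activator of Cps1, fell by 1.99, and Glud1, glutamate dehydrogenase, by 2.20. Of 30 enzymes of amino acid breakdown, 26 fell and 1 rose (median -1.37), including Bhmt (homocysteine, -3.94), Hgd (tyrosine, -3.83) and Uroc1 (histidine, -3.50).

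Genes of secreted plasma proteins fell more often than they rose. Of 25 coagulation and fibrinolysis genes, 22 fell and none rose at this threshold (median -1.53), among them Klkb1, prekallikrein (-4.42), F13b, a factor XIII subunit (-3.99), Serpinf2, the plasmin inhibitor (-3.62), and Plg, plasminogen (-2.46). Of 22 complement genes, 17 fell and 1 rose (median -1.60), with C4bpb, a subunit of the C4b-binding protein, at 0.586 to 1.74 CPM against 11.5 to 60.7 CPM (log2 fold change -4.98), and the mannose-binding lectins Mbl2 (-3.90) and Mbl1 (-3.59). Of 15 apolipoprotein and lipoprotein assembly genes, 13 fell and 1 rose (median -1.08), with Mttp, the lipid transfer protein that loads apolipoprotein B, down by 2.96. Acute phase genes were split, with 13 of 20 lower and 6 higher (median -1.04). Crp, Tf (transferrin) and Hp (haptoglobin) fell by 2.60, 2.34 and 2.12 on the log2 scale, whereas Hamp and Socs3 rose. Of 14 hepatokines and growth hormone axis genes, 7 fell and 6 rose (median -0.427). Selenop, the selenium carrier, fell by 4.31 and Rbp4, the retinol carrier, by 3.25, while Stc2 and Igfbp1 rose by 2.25 and 1.30.

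Drug metabolism genes fell more often than they rose. Of 17 genes of constitutive cytochromes P450 and their electron donors, 12 fell and none rose (median -1.60). The donors were not called, so the 12 are of 15 cytochromes P450. Cyp2c11, the male-specific steroid 2 alpha- and 16 alpha-hydroxylase, stood at 4.75, 5.09 and 3.11 CPM against 161, 169 and 138 CPM in batch 1, and at 7.15, 10.6 and 8.55 CPM against 36.2 to 53.9 CPM (median 45.1) in batch 2. Its groups did not overlap, and the decrease was larger in batch 1 (log2 fold change -5.15) than in batch 2 (-2.33), where vehicle was itself lower. Cyp2d1 fell by 3.87 on the log2 scale in the WT assay and by 1.30 in the ST assay, and Cyp2d5 fell by 3.24. Of 9 UDP-glucuronosyl- and sulfotransferases, 8 fell and none rose (median -3.75), including Ugt2a3 (-4.00) and Ugt2b35 (-3.75). Sult2a2 fell by 4.20 in the WT assay but had -1.32 in the ST assay, which did not pass the test (edgeR adjusted p = 0.0633). The sensors of foreign compounds fell too, Nr1i3 (CAR) by 4.35 and Nr1i2 (PXR) by 2.54 on the log2 scale, and both are among the 10 members of the CAR and PXR list, of which 5 fell and 2 rose (median -1.57). Of the 8 members that are targets, 3 fell and 2 rose. Of 6 aryl hydrocarbon receptor targets, 3 fell and 2 rose, against 33.9% and 32.3% of all genes tested (median -0.866). Cyp1a1 fell by 4.63 and Cyp1a2 by 2.16 on the log2 scale. Cyp1b1, the form usual outside the liver, rose, but had at most 0.413 CPM in the vehicle wells of batch 2. That is near the limit of 3 counts, so that no fold is given. Among 19 glutathione S-transferases, 9 fell and 6 rose (median -0.334), the latter a share near the 32.3% of all genes tested. The list ranged from Gstm3 (-5.05) and Gstm2 (-3.77) to Gstk1, the mitochondrial and peroxisomal form, which rose by 2.37.

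Most of the uptake transporters and bile acid synthesis enzymes tested fell, while efflux transporters fell about as often as all genes tested. Of 13 uptake transporters measured, 8 were tested, of which 6 fell and 2 rose (median -1.94). Slco1a1, an organic anion carrier, fell by 4.66 and Slc10a1, the sodium-dependent bile acid carrier, by 2.76 on the log2 scale. Of 9 efflux transporters, 3 fell, a share near the 33.9% of all genes tested, and 1 rose (median -0.245). The one that rose was Abcb4, the phospholipid flippase of the bile canaliculus, at 4.94 to 11.6 CPM against 0.55 to 2 CPM. Abcb11, the bile salt export pump, fell over both batches (-0.58), but its wells overlapped with vehicle in batch 1 and its call was lost with wells summed per rat (edgeR adjusted p = 0.118). Of 12 genes of bile acid synthesis and its nuclear receptors measured, 9 were tested. Of these 9, 6 fell and none rose (median -0.755), and all 6 are among the 7 enzymes tested, led by Acox2 (-3.59) and Akr1d1 (-3.10). Of 11 keratin and junction genes of hepatocytes, 8 fell and none rose (median -0.794), with Cldn1, a tight junction claudin, down by 2.99. Gjb1, the gap junction connexin 32, fell to means of 0.185 (batch 1) and 0.295 CPM (batch 2), against 4.65 and 2.97 CPM with vehicle. With ranitidine it was under the limit of 3 counts, so that no fold is given.

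The transcription factors that maintain hepatocytes did not all fall. Of the 17 hepatocyte markers, 13 fell and 1 rose (median -1.35). Hnf4a, the central nuclear factor of hepatocytes, stood at 59.2, 71.4 and 77.3 CPM in batch 1 against 198, 223 and 170 CPM, and at 66.8, 47.1 and 57.9 CPM in batch 2 against 146 to 226 CPM (median 185). Ranitidine wells lay below all vehicle wells, and Hnf4a fell by 1.58 on the log2 scale. Onecut1 (HNF6) fell by 2.08 and Foxa3 by 1.00. Cebpa was the marker that rose (0.43), while Nr1h4, the bile acid receptor FXR (0.12), did not pass the test.

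**Figure D2:**
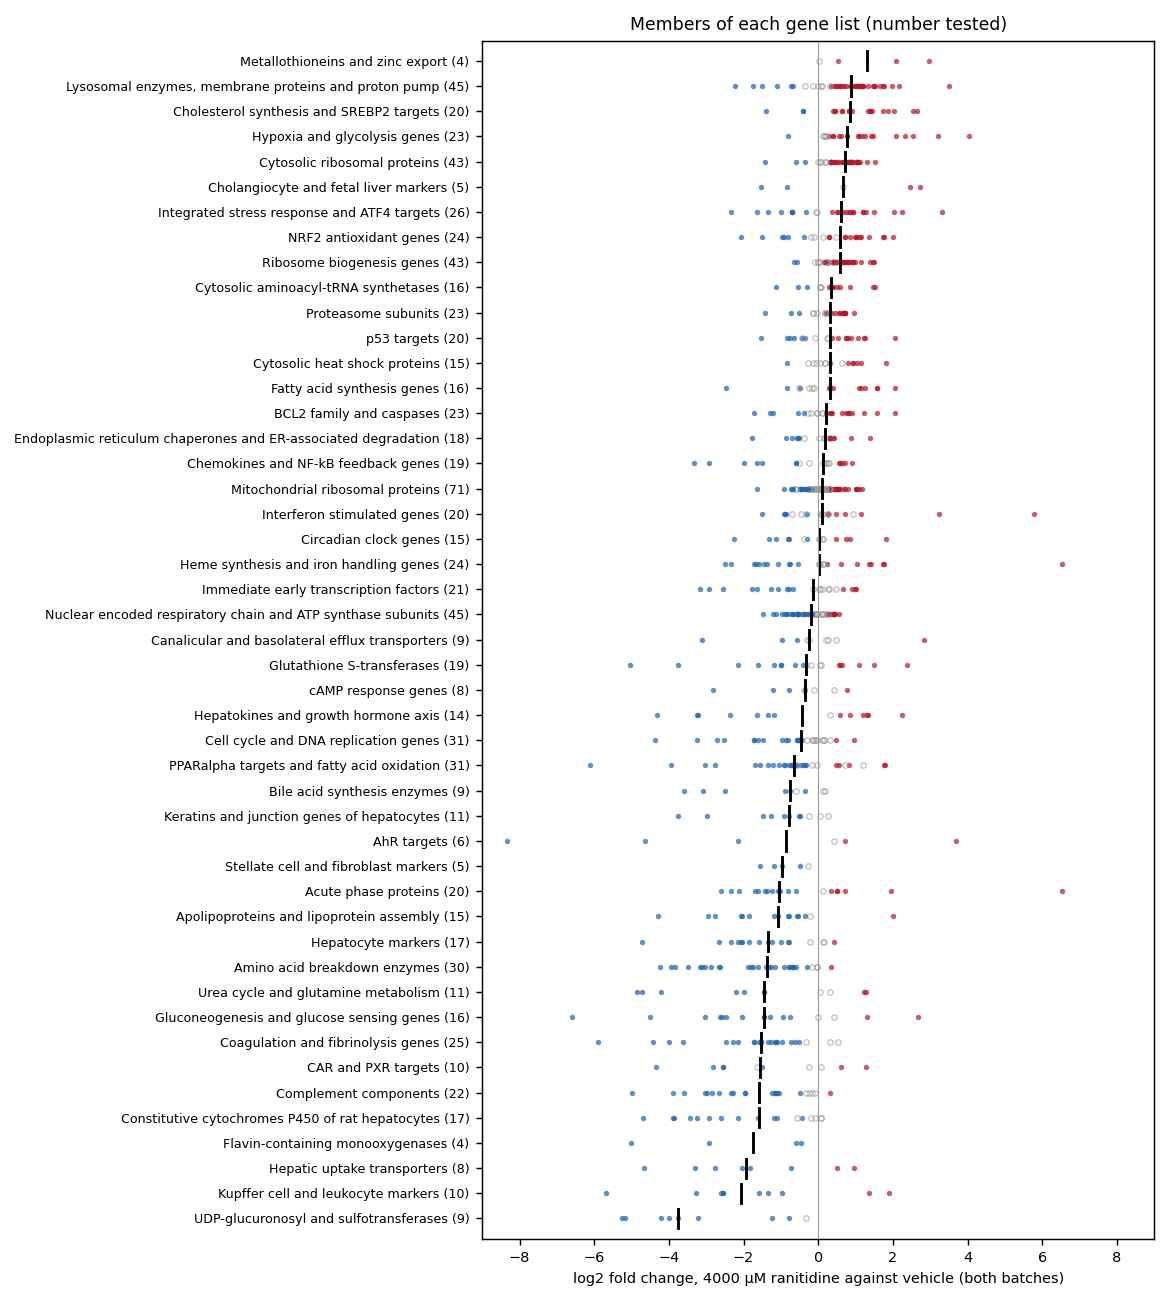
Log2 fold change of 4000 µM ranitidine against vehicle for the tested members of each gene list, ordered by list median, with the number tested in brackets. Filled points passed the test (red higher, blue lower), open points did not, and the black bar is the list's median. Lysosomal, sterol, glycolytic and ribosomal lists lie above 0 and the lists of plasma proteins and drug metabolism lie below, from a median of -3.75 for UDP-glucuronosyl- and sulfotransferases to 1.30 for metallothioneins.

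Against this decrease in the RNA of genes of hepatocyte functions, several gene groups rose. The first was glycolysis and the genes known to respond to low oxygen, where 18 of 23 rose and 1 fell, with a median log2 fold change of 0.773. Hk2, the hexokinase of muscle and growing cells, stood at 23.4, 27.1 and 19 CPM in batch 1 against 1.8, 1.43 and 1.19 CPM. In batch 2 Hk2 stood at 21.3, 19.3 and 30.6 CPM against 0.688 to 1.83 CPM (median 1.6). The groups did not overlap, a 16.5-fold rise (log2 fold change 4.04, SE 0.233). Pfkfb3, which makes the activator of phosphofructokinase, rose from 14.1 to 23.9 CPM to 143 to 202 CPM (log2 fold change 3.19, SE 0.173). Adm, the vasodilator adrenomedullin, rose by 2.53, Pfkp, a phosphofructokinase of non-liver tissues, by 2.32 and Bnip3, a receptor for removal of mitochondria, by 2.09. Smaller rises were found for Pgam1 (1.46), Pgk1 (1.41), Aldoa, the muscle-type aldolase (1.16), and Ldha, lactate dehydrogenase (0.77). Vegfa, the growth factor for vessels, was the member that fell (-0.81), a call that was lost in the ST assay (-0.37). Hk1, Pdk1, Egln3 and P4ha1 did not pass the test.

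The letters ACGTGC, which hold the core of the site that hypoxia-inducible factors bind, were searched on both strands in the RefSeq promoter windows (250 bases before to 50 after the gene's start, GRCr8). They were found for 9 of the 17 risen genes of this list that have a promoter entry, and for 12 of all 22 members with an entry, so that 3 of the 5 members that had not risen held them too. These letters are held by 6.25% of all 27457 genes with a RefSeq promoter, and of the tested genes with an entry 8.68%. A match is a description of the letters and not a shown binding site. The 4 promoter stretches below carry the match in capitals and are shown because their genes rose by 2.09, 1.46, 1.08 and 0.77 on the log2 scale, in this order. They lie at chr1:203155035-203155084 (minus strand), chr1:250672989-250673038 (plus), chr10:38743739-38743788 (plus) and chr1:106507996-106508045 (plus), with the match 100 to 95, 141 to 136, 133 to 128 and 74 to 69 bases before the start. Each is printed along its gene, so the match reads GCACGT where it lies on the other strand. Bnip3 holds 1 match on each strand, which overlap.
Bnip3: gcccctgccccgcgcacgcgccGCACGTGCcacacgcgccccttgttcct
Pgam1: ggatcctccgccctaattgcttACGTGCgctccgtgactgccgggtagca
P4ha2: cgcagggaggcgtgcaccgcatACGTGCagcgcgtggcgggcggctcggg
Ldha: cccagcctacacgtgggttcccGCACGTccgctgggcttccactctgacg

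The second was the lysosome. Of 45 genes of lysosomal enzymes, membrane proteins and the proton pump, with a few of autophagy, 33 rose and 6 fell, and the median log2 fold change was 0.874. Gpnmb, a membrane glycoprotein of lysosomes and melanosomes, stood at 354, 402 and 398 CPM in batch 1 against 18.7, 26.3 and 23 CPM. In batch 2 Gpnmb stood at 349, 288 and 296 CPM against 31.1 to 50.1 CPM (median 41). The groups did not overlap, an 11.4-fold rise (log2 fold change 3.51, SE 0.181), and the ST assay gave 3.52. Sqstm1, the autophagy receptor p62, rose from 174 to 232 CPM to 697 to 1180 CPM (log2 fold change 2.15, SE 0.117). Among genes of the proton pump that acidifies lysosomes, Atp6v0b (1.75), Atp6ap2 (1.72) and Atp6v0a1 (1.51) rose and Atp6v0e1 fell (-2.23). The proteases Ctsl, Ctsb and Ctsd rose by 1.64, 1.21 and 1.17, and Npc2 and Npc1, which move cholesterol out of lysosomes, rose by 1.47 and 1.14. The cathepsins Ctsh and Ctsc, which trim peptides from the amino end, fell by 1.74 and 1.50. Tfeb, the transcription factor named for this gene network, had a log2 fold change of -0.37 and did not pass the test, but passed it at -0.52 without replicate 1 of the ranitidine wells of batch 2.

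The letters GTCACGTG, the site known to be bound by TFEB, which shares the letters ACGTG with the motif above, were found on either strand in the promoters of 4 of the 27 risen lysosomal genes with an entry and of 6 of all 37 members, against 2.09% of all genes in the table and 4.26% of the tested ones. The 4 stretches are printed along the gene with each match in capitals (CACGTGAC on the other strand), of which Lamp1 holds 2. They lie at chr1:206968950-206968999 (minus strand), chr12:6358213-6358257 (plus), chr19:50357274-50357323 (minus) and chr16:83075202-83075251 (minus), and their genes rose by 1.17, 1.07, 0.87 and 0.84 on the log2 scale. In the ST assay the call of Atp6v0d1 was lost (0.32).
Ctsd: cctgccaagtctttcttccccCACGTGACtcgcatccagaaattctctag
Mcoln1: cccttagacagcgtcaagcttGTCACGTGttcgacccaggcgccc
Atp6v0d1: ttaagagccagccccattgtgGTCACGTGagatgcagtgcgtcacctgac
Lamp1: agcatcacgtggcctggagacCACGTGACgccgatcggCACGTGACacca

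The other motif and list pairs searched are given here without sequences. TGATGNAA, a core of the ATF4 site, was found for 2 of 14 risen genes of the integrated stress response with an entry. It was found for 6 of all 24, against 4.16% of all genes and 2.11% of the tested ones. TCACNCCAC, a sterol regulatory element, was found for 0 of 14 cholesterol genes with an entry (1.25% of all genes and 1.29% of the tested ones). TGACNNNGC, the antioxidant response element, was found for 2 of 10 risen NRF2 genes with an entry. It was found for 8 of all 19, against 13.1% of all genes and 15.8% of the tested ones.

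The integrated stress response, which slows protein synthesis and raises the transcription factor ATF4, was mixed. Of its 26 genes, 16 rose and 8 fell (median 0.599). Ddit3, the transcription factor CHOP, stood at 198, 207 and 187 CPM in batch 1 against 23.4, 25.7 and 29.3 CPM. In batch 2 Ddit3 stood at 303, 396 and 280 CPM against 20.7 to 29.2 CPM (median 27). The groups did not overlap, a 10-fold rise (log2 fold change 3.33, SE 0.164). Stc2, a secreted glycoprotein, Ppp1r15a (GADD34), which reverses the block of protein synthesis, and Slc7a5, an amino acid importer, rose by 2.25, 2.04 and 1.50. Other ATF4 targets fell, namely Cth, which makes cysteine (-2.34), Pycr1, which makes proline (-1.64), Fgf21, a secreted hormone (-1.34), and Asns, asparagine synthetase, which fell by 1.00 and whose wells overlapped with vehicle in batch 2 and whose call was lost in the ST assay (-0.49). Atf4 itself rose by 0.50. Of 16 cytosolic aminoacyl-tRNA synthetases, 10 rose and 3 fell (median 0.344), with Sars and Wars up by 1.51 and 1.45 on the log2 scale.

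Sterol synthesis rose. Of 20 genes of cholesterol synthesis and other SREBP2 targets, 17 rose and 3 fell (median 0.853). Insig1, the sterol-regulated brake on SREBP activation, stood at 4250, 3640 and 3920 CPM in batch 1 against 623, 713 and 722 CPM, and at 4100, 5120 and 4610 CPM in batch 2 against 540 to 966 CPM (median 637). All ranitidine wells were the higher, a 6.28-fold rise. Msmo1, Fdps and Mvd, which act at late and early steps of the pathway, rose by 2.53, 1.87 and 1.72 on the log2 scale, each more in batch 2. Of 16 fatty acid synthesis genes, 9 rose and 3 fell (median 0.301), with Fads1, a desaturase, and Fasn, fatty acid synthase, up by 2.06 and 1.57, and Thrsp (Spot 14), a lipogenic regulator, down by 2.47.

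The protein synthesis machinery rose by modest amounts in many genes. Of 43 cytosolic ribosomal proteins, 35 rose and 3 fell (median 0.711), with Rpl12 at 128 to 240 CPM against 48.3 to 91.9 CPM. Of 43 ribosome biogenesis genes, 30 rose and 2 fell (median 0.586), including Rrp12, an export factor (1.50), and Rrp9, a nucleolar RNA-binding protein (1.46). Of 23 proteasome subunits, 13 rose and 3 fell (median 0.316), with Psmd4, a ubiquitin receptor, up by 0.94. Mitochondrial ribosomal proteins were spread around 0 (median 0.103). Of 71, 23 were higher, a share near the 32.3% of all genes tested, and 17 lower, against 33.9%. Of 45 respiratory chain and ATP synthase subunits encoded in the nucleus, 24 fell and 9 rose (median -0.209), led by Ndufa8 (-1.48) and Ndufa12 (-1.21).

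Stress responses outside the endoplasmic reticulum rose in part. Of 24 antioxidant genes of the NRF2 network, 14 rose and 6 fell (median 0.587), with Hmox1, heme oxygenase, up by 1.74 and Nqo1, a quinone reductase, by 0.73. Nfe2l2, a member that encodes NRF2, fell by 2.08 on the log2 scale, from 393 to 691 CPM to 84.2 to 163 CPM, and Gclc and Gclm, the subunits of the enzyme that starts glutathione synthesis, fell by 0.98 and 0.92. Of 4 genes of metallothioneins, their regulator and zinc export, 3 rose and none fell (median 1.30). Mt1, a metal-binding protein, rose more in batch 1 (from 79.8 to 95.5 CPM to 1080 to 1560 CPM) than in batch 2 (from 235 to 473 CPM to 781 to 954 CPM). Of 15 cytosolic heat shock genes, 7 rose and 1 fell (median 0.312), led by Hspb1 (1.81) and the co-chaperone Bag3 (1.13). Of 20 p53 targets, 10 rose and 6 fell (median 0.313), with Pmaip1 (NOXA), a cell death activator, up by 2.04, Tigar, a sugar phosphatase, by 1.26 and Cdkn1a (p21) by 1.23, while the death receptor gene Fas fell by 1.54 from levels of at most 2.99 CPM, but had -0.43 in the ST assay and did not pass the test there. Of 23 genes of the BCL2 family and caspases, 12 rose and 5 fell (median 0.214), including the survival factor Bcl2l1 (1.23) on the higher side and the caspase inhibitor Xiap (-1.30) on the lower.

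Of 24 heme and iron genes, 8 rose, a share near the 32.3% of all genes tested, and 11 fell, against 33.9% of all genes tested. Their median was 0.0148, and -0.0646 when only library totals were used for scaling. Beside Hamp, Ftl1, the ferritin light chain, stood at 12700, 9210 and 12700 CPM against 3320, 2810 and 2650 CPM in batch 1, and at 11500, 13000 and 12500 CPM against 3630 to 4520 CPM (median 4160) in batch 2. Again all ranitidine wells were higher, a 3.39-fold rise. Fth1, the ferritin heavy chain, did not pass the test (0.13). Tfrc, the transferrin receptor of most cells, rose by 1.34, and Slc11a2, which carries iron across membranes, by 1.41. The genes through which hepatocytes sense iron fell, namely Hjv, a co-receptor for bone morphogenetic proteins (-2.51), Hfe (-1.67) and Tfr2 (-1.45), as did Slc40a1, ferroportin itself (-1.58), and Fech, which inserts iron into heme (-1.71). Hfe, Tfr2, Slc40a1, Tfrc and Id1 were named after their values were seen.

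Early signalling genes moved in both directions after 24 h. Of 21 immediate early transcription factors and feedback genes, 10 fell and 4 rose (median -0.155). Egr1 stood at 117, 86.1 and 129 CPM in batch 1 against 1190, 1150 and 1200 CPM, and at 64.4, 87 and 61.5 CPM in batch 2 against 416 to 652 CPM (median 571). Every ranitidine well was lower, a 9.02-fold decrease. Egr2, Jun and Dusp6, a phosphatase of the growth factor kinase ERK, fell by 2.56, 1.65 and 2.94 on the log2 scale. Of 31 cell cycle and DNA replication genes, 16 fell and 2 rose (median -0.477), from low levels, such as Top2a at 0.114 to 0.792 CPM against 2.46 to 7.56 CPM. Of 19 chemokines and NF-kB feedback genes, 7 fell and 5 rose (median 0.134), against 33.9% and 32.3% of all genes tested. The lowest were Cxcl12 (-3.34) and Cxcl11 (-2.93). Of 20 interferon-stimulated genes, 6 rose and 5 fell (median 0.0878), neither a larger share than over all genes tested (32.3% and 33.9%). Rsad2 (5.77) and Oasl (3.23) stood apart from a list that was otherwise divided, and the wells of Oasl overlapped with vehicle in batch 1. Of 15 clock genes, 4 rose and 6 fell, against 32.3% and 33.9% of all genes tested. Their median was 0.0168, and -0.0576 with library totals alone. Bhlhe40, a repressor that also responds to low oxygen, rose by 1.82. Dbp, an output gene, fell by 1.33, a call that was lost with wells summed per rat (edgeR adjusted p = 0.0614). Of 8 cAMP response genes, 1 rose and 4 fell (median -0.37).

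Markers of other liver cells were present at low levels and moved in part. The 17 Kupffer cell and leukocyte markers measured summed to 202 to 211 CPM in batch 1 and 129 to 164 CPM in batch 2 with ranitidine, against 156 to 206 and 117 to 155 CPM with vehicle. Cd14 alone made up a mean of 122 and 111 CPM of these sums with ranitidine, against 28.8 and 33.6 CPM with vehicle, and carried the sum where most other members were lower. Of the 10 tested, 8 fell and 2 rose (median -2.06). Clec4f, a lectin that defines Kupffer cells, fell from 12.6 to 22.7 CPM to 2.2 to 4.33 CPM in batch 1, and from 4.71 to 7.91 CPM to 0.114 to 0.325 CPM in batch 2. Vsig4, another Kupffer cell receptor, had 2 counts over the 6 ranitidine wells and 182 over the 9 vehicle wells. Cd163, C1qc and Csf1r fell by 2.56, 2.54 and 2.60 on the log2 scale, whereas Cd14 and Cd68, named after their values were seen, rose by 1.90 and 1.36. In lysates of whole wells, fewer cells of a type and less RNA per cell cannot be told apart. The part of these cells in the changes of chemokines, complement and lysosomal genes was not tested. Of 5 stellate cell and fibroblast markers tested, 4 fell and none rose, of 5 cholangiocyte and fetal liver markers 2 rose and 2 fell, with Sox9, a duct cell factor, up by 2.71 and Epcam down by 1.54, and neither of the 2 endothelial markers tested was called. The 11 stellate cell and fibroblast markers measured summed to 373 to 453 CPM in batch 1 and 117 to 183 CPM in batch 2 with ranitidine, against 502 to 517 and 323 to 417 CPM with vehicle, lower in both batches without overlap. The cholangiocyte and fetal liver markers summed to 56.8 to 73.1 CPM in batch 1 and 27.4 to 37 CPM in batch 2, against 45.7 to 53.2 and 52.2 to 58.9 CPM, higher in batch 1 and lower in batch 2. The endothelial markers summed to 11.5 to 12.1 CPM in batch 1, where the groups overlapped (10.2 to 12.9 CPM with vehicle), and to 2.52 to 3.25 CPM in batch 2, below the 5.55 to 7.78 CPM with vehicle.

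The 2 rats differed in the response of 1328 genes by the test of the interaction of batch and treatment, 523 with a higher value in batch 2 (5.13% of genes tested) and 805 with a lower one (7.9%). Under scaling by library totals alone the split was 54.2% higher in place of 39.4%. Of the genes of endoplasmic reticulum chaperones, stress sensors and degradation, 10 of 18 differed between the rats, as did 11 of 20 cholesterol synthesis genes and 21 of 43 ribosome biogenesis genes. Over both batches 7 of the 18 rose and 6 fell (median 0.173), and the median was -0.152 in batch 1 and 0.307 in batch 2. Hspa5, the main chaperone BiP, stood at 3.17, 1.51 and 4.03 CPM in batch 1 against 23.5, 19.1 and 28.8 CPM, and at 6.93, 21.5 and 6.21 CPM in batch 2 against 5 to 13.7 CPM (median 10.7). The groups were separate in batch 1 and overlapped in batch 2, with log2 fold changes of -3.00 and 0.18 (interaction 3.17, edgeR adjusted p = 0.00276). Over both batches Hspa5 had -0.86 (edgeR adjusted p = 0.0309), a call that was lost without any 1 of 5 wells (adjusted p 0.0508 to 0.128) and in the ST assay (-0.21). Hsp90b1, the chaperone GRP94, stood at 253, 213 and 270 CPM against 789, 672 and 645 CPM in batch 1 and at 521, 791 and 541 CPM against 638 to 775 CPM (median 703) in batch 2. It too was separate in batch 1 alone (-1.50 against -0.15 in batch 2), and over both batches it fell by 0.70 in the WT assay and had 0.15, not called, in the ST assay. Calr and Pdia6 followed the same pattern, and fell by 1.19 and 1.00 in batch 1, with -0.06 and -0.12 in batch 2, and over both batches Calr lost its call in the ST assay and Pdia6 with wells summed per rat. Creld2, a stress-induced chaperone cofactor, rose in both, by 0.63 in batch 1 and 1.94 in batch 2 on the log2 scale, and Edem1, which sends misfolded glycoproteins to degradation, fell in both, by 1.66 and 1.86. Hspa5, Calr and Pdia6 were named after their values were seen.

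**Figure D3:**
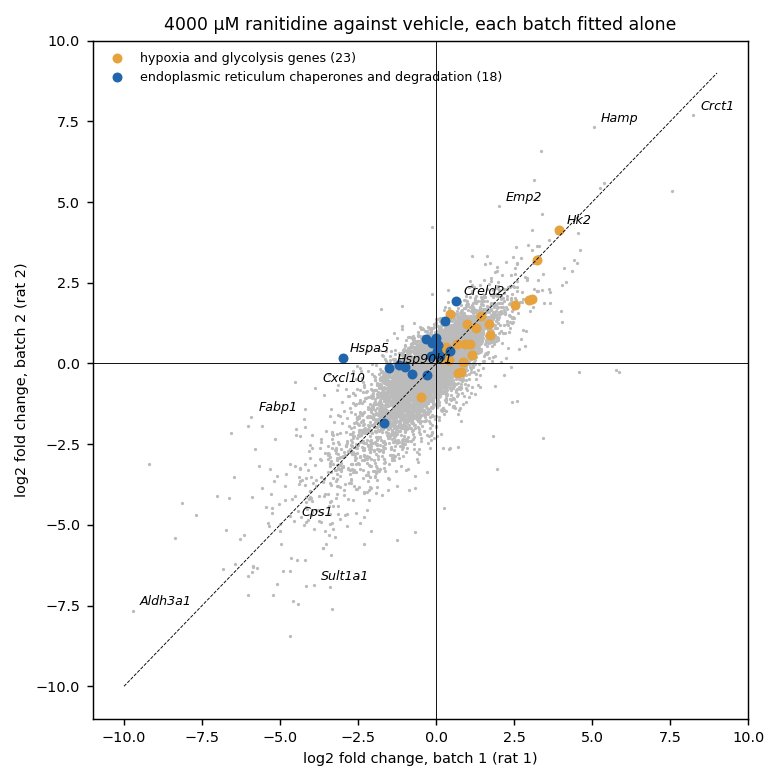
Log2 fold change of each of the 10191 genes in batch 1 (x axis) and batch 2 (y axis), each batch fitted alone, with hypoxia and glycolysis genes in orange and endoplasmic reticulum chaperones and degradation genes in blue. The dashed line marks equal values. Crct1, Hamp and Cps1 lie far out in both rats, while Hspa5 lies at -3.00 in batch 1 and 0.18 in batch 2.

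Other genes with the smallest adjusted p for this difference were lower with ranitidine in both rats or in 1. Sult1a1 fell by 3.92 in batch 1 and 6.88 in batch 2, Cldn1 by 2.12 and 3.82, Dlc1, a GTPase-activating protein, by 0.44 and 1.93, and Uox, urate oxidase, by 2.22 and 4.55 on the log2 scale. Nr1d1, the clock repressor REV-ERB alpha, stood at 36.6 to 39.7 CPM against 153 to 170 CPM in batch 1 and at 25.1 to 57.7 CPM against 32.1 to 46.8 CPM in batch 2. Its groups overlapped in batch 2, with log2 fold changes of -2.05 and -0.01, and the vehicle levels of the rats differed more than those with ranitidine.

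The lower concentration had little measurable effect. At 160 µM, 4 genes rose (0.0393% of those tested) and 2 fell (0.0196%) against vehicle by edgeR, and 592 had an unadjusted p under 0.05. One of the risen genes was Cyp2c24, a cytochrome P450 singled out here after its values at 160 µM were seen, which stood at 19.1 to 32.3 CPM in batch 1 and 6.68 to 11.6 CPM in batch 2 at 160 µM, against 8.53 to 9.97 and 2.17 to 4.44 CPM with vehicle, without overlap (log2 fold change 1.40, edgeR adjusted p = 4.99e-06). At 4000 µM the same gene fell to at most 0.433 CPM. Crct1 had 4.47 to 8.28 CPM in batch 1 at 160 µM, above its vehicle wells, and 1.41 to 3.47 CPM in batch 2, where 1 of its 3 wells lay above all vehicle wells, and did not pass the test (log2 fold change 0.80). Hamp, Sfn and Hk2 did not pass it either, with log2 fold changes of 0.14, 0.51 and 0.37. Compared directly, the wells at 4000 µM had 2948 genes higher (28.9%) and 2910 lower (28.6%) than those at 160 µM.

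Set against the mean of the high concentrations of the 13 other chemicals, 4000 µM ranitidine had 3492 genes higher (34.3%) and 3737 lower (36.7%). Crct1 differed most on the higher side (log2 difference 7.73), at a mean of 593 CPM against 0.162 to 45 CPM over the other high concentrations, the highest of all 30 conditions. Prnd, which encodes the prion-like protein doppel, was 5.13 higher, at 18.2 CPM against 0.0683 to 3.15 CPM, with 5.04 CPM in the wells of medium alone. Lmcd1, a LIM domain regulator, was 4.11 higher, at 26.8 CPM, but the wells of medium alone stood close to it at 20.8 CPM, against 4.58 CPM with vehicle. Hamp was 5.10 higher than the mean of the others on the log2 scale, but another condition exceeded it, with 351 CPM against 208 CPM.

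On the lower side stood genes that were high with some of the other chemicals. Cyp4a2, a fatty acid hydroxylase that peroxisome proliferators raise in rat, was 5.87 lower than the mean of the other high concentrations, and fell less against vehicle (-1.69), a call that was lost with wells summed per rat (edgeR adjusted p = 0.0522). Its relative Cyp4a1 had at most 1 count in any ranitidine well and Cyp2b2, the rat gene raised by phenobarbital, at most 3, so that both are given without a fold. Over the other high concentrations Cyp4a1 stood at 0.519 to 3460 CPM and Cyp2b2 at 0.548 to 1240 CPM. Aldh1a1 and Aldh3a1 were the lowest of all 30 conditions with ranitidine. Of the 31 PPARalpha genes, 28 were lower than the mean of the other high concentrations, against 21 that were lower than vehicle.

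**Figure D4:**
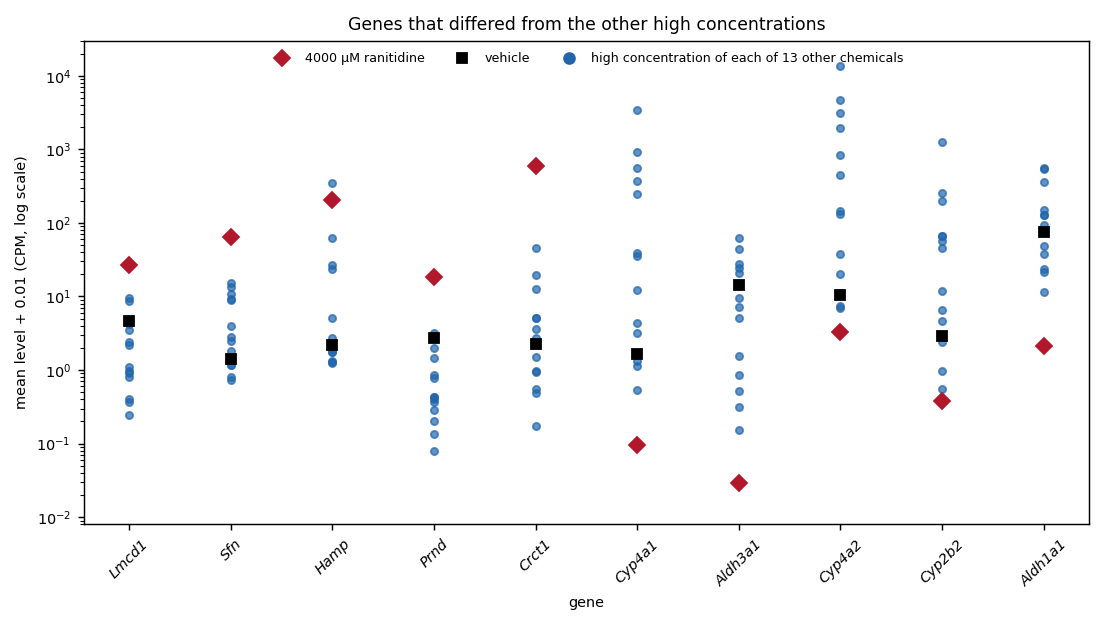
Mean level plus 0.01 (CPM, log scale) of 5 genes higher and 5 lower with 4000 µM ranitidine (red diamonds) against the high concentrations of the 13 other chemicals (blue circles), with vehicle as black squares. Ranitidine is the highest condition for 4 of the first 5 genes, Hamp being the exception, and the lowest for the other 5.

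The receptor that ranitidine blocks was not detected. Hrh2 had 0 counts in all 15 ranitidine and vehicle wells, which allows up to 0.325 to 0.565 CPM per well from 3 counts, and 1 count over all wells of the assay. Of 9 genes of histamine receptors and histamine breakdown measured, 3 were tested, of which 2 fell, the monoamine oxidases Maob (-3.08) and Maoa (-1.02). All 4 flavin-containing monooxygenases tested fell with wells as the unit (median -1.76), but Fmo4 and Fmo5 did not pass the test with wells summed per rat (edgeR adjusted p = 0.0772 and 0.0917). Fmo1 had 5 counts over the 6 ranitidine wells and 262 over the 9 vehicle wells. Fmo5 fell by 0.46 and Fmo4 by 0.59, the latter with overlapping wells in batch 1 and batch 2. Slc47a1, a cation exporter, had 15 counts over the 6 ranitidine wells and was not tested.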

How the data were processed

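TempO-Seq libraries of the ST and WT assays were made from the same lysates. The authors aligned the reads with STAR 2.5.3a to the rat build rn6, per the submitters' processing notes, and deposited tables of raw read counts per probe and well, without normalization. Every column of probe counts was mapped to its probe, so 0 columns were left unused. Groups, batches and plates come from the sample labels. Replicate numbers were given in accession order and pair no wells.

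Where several probes shared a symbol (in any case), their counts were added (705 tested genes had more than 1 probe). A gene entered the fit if its counts averaged 10 or more. Fits were made in R 4.3.3 with edgeR 4.0.16 (quasi-likelihood, TMM, two-sided) over all wells of an assay, with every treatment as a group and the batch as a term, and Benjamini-Hochberg adjustment over all genes tested. Batches were also fitted alone, and the interaction of batch and treatment was tested. With 3 wells of 1 rat per batch, a fold change carries the SE between wells given beside it. The fitting code was tested on simulated data.

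The comparison, the 49 gene lists and the named genes were chosen with earlier results of these data known. The text names 204 genes, of which 55 were added after their values were seen. The others were taken by these rules: the 12 highest and 12 lowest genes called in both batches and in each alone with a mean of at least 50 counts, up to 5 called members per list, the 6 highest and 6 lowest against the other high concentrations, the 5 with the smallest interaction p, and Hrh2, the flavin-containing monooxygenases and Slc47a1. Symbols of unnamed loci were left out, and some genes that these rules pick are not reported here. The motif and list pairs were also chosen after their counts were seen. Promoters are RefSeq sequences of GRCr8, with an entry for 7535 of the 10191 genes tested, matched by symbol. Their coordinates are of GRCr8 and not of the build used for alignment.

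Alternatives were DESeq2 1.42.0, RLE scaling, library totals, no filter, single probes, vehicle of the same plate, the wells of ranitidine and vehicle alone, wells summed per rat, a 2-fold threshold, the ST assay and each well left out in turn. Tables were read with the R package data.table, version 1.17.8.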

Additional observations from a re-analysis of the deposited data

Results flagged for a closer look

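Genes named in the text whose response differed between the rats (edgeR test of the interaction, adjusted p under 0.05) are given by the log2 response of batch 2 minus that of batch 1. Among genes that rose, the response was larger in batch 2 for Emp2 (2.84), Hamp (2.24), Creld2 (1.30), Fdps (1.13), Fasn (1.11), Rrp12 (1.08), Mvd (1.07), Msmo1 (1.03), Id1 (0.998), Ddit3 (0.70) and Tfrc (0.59). Sterol and lipid synthesis genes are 4 of these 11. It was smaller in batch 2 for Mt1 (-2.78), Sox9 (-1.62), Dnase2b (-1.51), Rab15 (-1.43), Hmox1 (-1.36), Igfbp1 (-1.27), Gpnmb (-1.16), Adm (-1.08), Pfkp (-1.01), Atp6v0a1 (-0.85), Ctsd (-0.64), Atp6ap2 (-0.53) and Ctsl (-0.43), among them 5 lysosomal genes. Egln3, which was not called, had -1.07.

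Among genes that fell, the decrease was deeper in batch 2 for Sult1a1 (-2.97), Clec4f (-2.51), Uox (-2.35), Cd163 (-2.10), Uroc1 (-1.84), Cldn1 (-1.72), Ppara (-1.64), C1qc (-1.50), Dlc1 (-1.50), Sult1b1 (-1.39), Onecut1 (-1.37), Hjv (-1.09), Gstm2 (-0.97), Abcb11 (-0.96), Mbl2 (-0.91), Tf (-0.81), Hfe (-0.785), Alb (-0.64) and Mttp (-0.58). The Kupffer cell markers Clec4f, Cd163 and C1qc are among them. It was deeper in batch 1 for Fabp1 (4.26), Hspa5 (3.17, with no decrease in batch 2), Cyp2c11 (2.80), Akr1d1 (2.09), Nr1d1 (2.03), Serpind1 (1.56), Hsp90b1 (1.34), Calr (1.11), Khk (0.98), Dbp (0.87), Pdia6 (0.86), Pycr1 (0.85), Cyp2d1 (0.83) and Nfe2l2 (0.81). The rats also differed in library preparation and sequencing, which cannot be told apart from the animal.

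Among the 6 vehicle wells of batch 2, 1 well stood apart from the others for 15 of 299 genes (5.02%), and chance alone sets 1 well apart in about 1 in 20 groups. For genes named in the text, the well that stood apart was the highest for Dnase2b (81 CPM), Creld2 (84.8 CPM), Gstm3 (65.4 CPM), Slc10a1 (3.33 CPM), Oasl (3.76 CPM) and Cdkn1a (11 CPM), and the lowest for Hamp (0.855 CPM), Hspb1 (24.7 CPM) and Fech (44.4 CPM). None of these wells reached the ranitidine wells of its batch.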

How the results depend on the processing

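The count of 6746 genes called by edgeR for 4000 µM ranitidine against vehicle was 6793 with DESeq2 (6729 shared), 6743 with RLE scaling, 6672 with library totals, 7423 without a filter, 7029 over single probes, 6555 with vehicle of the same plate and 6744 with the ranitidine and vehicle wells alone. Summed to 1 library per rat and treatment, it was 5528, of which 5526 were shared, and a 2-fold threshold left 2136. Leaving out each well in turn gave 6442 to 6730 calls over both batches, 4674 to 5264 in batch 1 and 5314 to 5973 in batch 2. With library totals, 43% of the calls were higher in place of 48.8%. Interaction calls numbered 1315 with RLE scaling, 1425 with library totals and 951 without a filter, and the calls at 160 µM 5 or 6.

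Over 299 genes and 7047 values, 6997 kept their direction and side of the threshold, 44 lost the call, 4 gained it and 2 changed sign. Those 2 were Hsp90b1 (0.15) and Nr1h4 (-0.12) in the ST assay. Hspa5 lost its call over both batches (adjusted p = 0.0309) without any 1 of the ranitidine wells of batch 1, without replicate 3 of the ranitidine wells of batch 2 or without replicate 3 of the vehicle wells of batch 1 (0.0508 to 0.128), or with the ranitidine and vehicle wells alone (0.0572), and Nr1d1 (0.0375) without any 1 of the ranitidine wells of batch 1, replicate 3 of the ranitidine wells of batch 2 or replicate 2 of the vehicle wells of batch 1 (0.0514 to 0.125), without a filter (0.0595) or with vehicle of the same plate (0.0658), both by edgeR. Tfeb gained a call without replicate 1 of the ranitidine wells of batch 2 (-0.52), as did Pdk1 (0.26), which was also called with the ranitidine and vehicle wells alone (0.21) and in the ST assay (0.33). Summed per rat, Abcb11, Dbp, Fmo4, Fmo5, Cyp4a2, Nr1d1, G6pc and Pdia6 were not called. In the ST assay, Sult2a2 (-1.32), Fas, Nr1d1, Asns, Atp6v0d1, Calr, Hspa5 and Vegfa were not called. Of the list medians, those of the clock genes (-0.0576) and of heme and iron genes (-0.0646) changed sign with library totals.

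No paired analysis was possible because the labels give no replicate numbers, and the rat was a term of the fit. Genes with under 10 counts on average were not tested, and a level of 3 counts equals 0.325 to 0.565 CPM in the wells compared.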
